A study of Mus musculus with 24 samples.

Results

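The hedgehog pathway genes described here are the receptor gene Ptch1, the transducer gene Smo, the inhibitor gene Sufu, the transcription factor genes Gli1, Gli2 and Gli3, and Hhip, which encodes a ligand-binding inhibitor. They were 7 of the 24972 genes in the deposited tables, found by symbol, and all 7 passed the filter on low values in both tables. The set was formed around Gli3 because Gli3 was higher with perinatal morphine (MO) than with saline (SAL) in female offspring. The MO and SAL values of the female libraries therefore chose the set and are given as a description with no test, and tests were made only in the male libraries, which the choice did not use.

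Bulk polyadenylated RNA of the medial prefrontal cortex (mPFC) was sequenced from 24 offspring at postnatal day 21 (P21), with 6 libraries each of male MO, male SAL, female MO and female SAL. The offspring were wild-type B6D2F1/J mice, born to C57BL/6J dams and DBA/2J sires. MO dams received morphine under the skin once a day, stepped up over the first days to 10 mg/kg, and SAL dams received saline on the same schedule. Injections ran from before mating, through pregnancy and lactation, to weaning, and the offspring themselves were not injected, so any exposure was through the dam. Each library of a sex came from a different litter, small litters were pooled soon after birth, and which male and female libraries were littermates was not given in the sources used here. Values are the authors' normalized counts, made separately for the male and the female table, and summed to nearly the same total in each library (14728966 to 15966593). The tables do not hold the number of reads behind each library, for which the methods give only an approximate target, and 11 libraries carry the mark combined in the tables (4 female MO, 4 female SAL, 2 male MO and 1 male SAL). The 2 female MO libraries PFC1 and PFC3 held the highest oligodendrocyte and astrocyte markers of the female table. Female differences and correlations are also given without them, an alternative chosen after seeing the data. The SAL library PFC2 was next in oligodendrocyte markers (142848 normalized counts over 10 genes, against 178859 in PFC3) and was kept. Values without PFC1 and PFC3 therefore take high glial libraries out of MO alone, which lowers MO against SAL for genes that follow these markers. PFC1 also held the highest sums of the female table for striatal projection neuron markers (9813 normalized counts over 10 genes, against 3471 to 4653 in the other 11 female libraries) and for microglia (12124, against 4693 to 8936). As a check of the tissue label, 10 markers of cortical excitatory neurons summed to between 79576 and 99670 normalized counts over all 24 libraries, a list that does not tell mPFC from other cortex. The sum is led by the most abundant genes. By the mean log2 value of the same list, PFC1 stood at -0.45 from the mean of the female table. The other 11 female libraries stood between -0.04 and 0.12. PFC1 also held the lowest sum of inhibitory neuron markers of all 24 libraries, at 13001 normalized counts over 10 genes.

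Hedgehog ligands bind Ptch1, which in their absence holds Smo inactive. Once Smo is free to act at the primary cilium, Sufu releases the Gli proteins, of which Gli2 is mainly an activator, Gli3 is mainly processed to a repressor, and Gli1 is an activator whose own gene is a target of the pathway. Ptch1 and Hhip are targets too, so that signalling raises its own inhibitors. In the embryonic forebrain Gli3 patterns the dorsal telencephalon, and in the postnatal cortex Sonic hedgehog made by neurons acts on astrocytes, a class of cells in which Gli3 and Gli2 are also known to be expressed.

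Because Gli1, Gli2 and Gli3 are related by descent, the part of their coding sequence that is most alike is shown first, as it decides whether sequencing reads of one could be counted for another. The 3 windows below are 120 bases each, from the region that encodes the zinc fingers, read from GENCODE transcripts on GRCm38.p6. They begin at coding base 1426 of Gli3, 1237 of Gli2 and 700 of Gli1, and capitals mark bases that differ from Gli3.
Gli3: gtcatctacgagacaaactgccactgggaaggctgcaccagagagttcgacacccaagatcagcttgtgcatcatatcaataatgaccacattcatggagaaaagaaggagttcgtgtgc
Gli2: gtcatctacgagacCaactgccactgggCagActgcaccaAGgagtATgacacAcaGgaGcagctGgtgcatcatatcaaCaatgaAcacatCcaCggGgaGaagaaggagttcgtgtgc
Gli1: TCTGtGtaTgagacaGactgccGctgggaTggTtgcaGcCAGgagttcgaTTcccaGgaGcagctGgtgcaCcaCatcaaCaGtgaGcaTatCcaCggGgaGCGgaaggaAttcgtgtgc

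In this window Gli2 shared 103 of 120 bases with Gli3 (85.8%) and Gli1 shared 88 (73.3%). Over the whole coding sequence, the longest run of bases that Gli3 shared was 25 with Gli2 and 14 with Gli1, against a read length of 85 bases. Of the 85-base stretches of the annotated transcripts, none of those of Gli1, Gli2, Gli3, Ptch1, Sufu or Hhip occurred in another gene, and 0.578% of those of Smo did. On GRCm38.p6, Gli3 lies on the plus strand at chr13:15463723-15730026 and Ptch1 on the minus strand of the same chromosome at chr13:63508328-63573460. Gli1 lies at chr10:127329882-127341579, Gli2 at chr1:118834061-119054405 and Hhip at chr8:79965850-80058060, all on the minus strand. Smo lies at chr6:29735497-29761366 and Sufu at chr19:46396896-46488804, both on the plus strand.

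Per kilobase of transcript, the most abundant of the 7 was Ptch1, at a mean of 81.0 normalized counts per kilobase over the 24 libraries, and the least abundant was Gli1, at 3.09. Sufu followed Ptch1 at 43.6, Smo had 39.5, Gli3 14.5, Hhip 12.4 and Gli2 4.91. Ptch1 was above Sufu, Smo above Gli3 and Hhip above Gli2 in 24 of 24 libraries. The other neighbours overlapped, with Sufu above Smo in 17 of 24 libraries, Gli3 above Hhip in 18 and Gli2 above Gli1 in 21. Gli3 was thus the most abundant of the 3 Gli genes at this age. No library listed any of the 7 genes at 0.

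**Figure D1:**
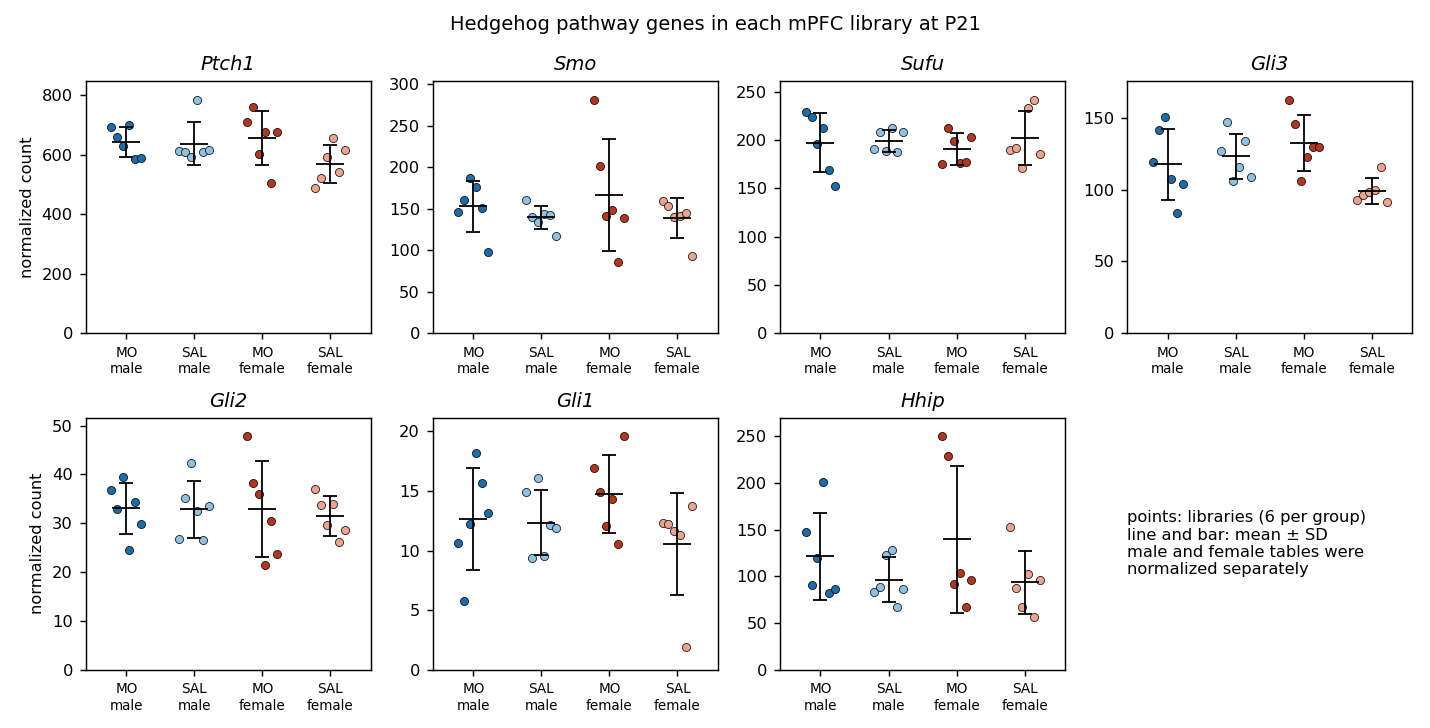
Normalized counts (y axis, linear and from 0) of the 7 hedgehog pathway genes in each library, by treatment and sex (x axis). Points are libraries, 6 per group, and lines and bars are the mean and SD. Female MO libraries hold Gli3 between 106 and 163, female SAL libraries between 91.3 and 116, while the male MO and male SAL ranges overlap for all 7 genes.

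Among the receptor genes, Ptch1, the ligand receptor, ran from 586 to 701 normalized counts in male MO libraries with a median of 644, against 591 to 785 with a median of 611 in male SAL libraries. The ranges overlapped, and 1 male SAL library (PFC16, at 785) stood above the other 5, which lay between 591 and 614. The log2 fold change of Ptch1 in males was 0.02 (SE 0.07, 95% interval -0.13 to 0.17, 2-sided exact permutation test, p = 0.879), and it was 0.08 without PFC16. That library also held the highest striatal projection neuron marker sum of the male table, at 8462 normalized counts, against 3196 to 5907 in the others. Over the 12 male libraries Ptch1 and that list had r = 0.65 with group means removed (rho 0.27), and r = 0.19 without PFC13 and PFC16, the 2 farthest from the list's median. Here and below, log2 fold changes are MO minus SAL differences of mean log2(normalized count + 1), a scale that understates the change of low genes, SEs and intervals come from limma, and exact p-values use all 924 relabellings of 6 libraries against 6. In females, Ptch1 ran from 503 to 761 in MO with a median of 675 and from 487 to 657 in SAL with a median of 566. The MO minus SAL difference was 0.20 on the log2 scale (SE 0.10), or 0.11 without PFC1 and PFC3, and 4 of 6 MO libraries lay above the highest SAL library.

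Smo, the transducer that Ptch1 restrains, had 97.9 to 187 normalized counts in male MO libraries (median 155) and 117 to 161 in male SAL libraries (median 141). The lowest of all 12 was an MO library (PFC19), and 5 of 6 MO values exceeded the SAL mean. Smo had a log2 fold change of 0.11 (SE 0.13, 95% interval -0.16 to 0.38, exact permutation p = 0.491), which was 0.23 (SE 0.09) without PFC19 and 0.04 without PFC13. In females Smo spanned 85.2 to 281 in MO (median 145) and 92.3 to 160 in SAL (median 143). The medians lay close together and the mean of MO (166 ± 67.5, SD, n = 6), against 138 ± 23.9 (SD, n = 6) in SAL, was drawn up by PFC1 at 281 and PFC3 at 202. The log2 difference of 0.19 (SE 0.22) in females was 0.02 without PFC1 and -0.12 with both of these MO libraries left out. In bulk tissue, fewer cells of a type and less RNA per cell cannot be told apart.

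Sufu, the cytoplasmic protein that binds and restrains Gli proteins, varied more in male MO libraries (153 to 229 normalized counts, median 204) than in male SAL libraries (187 to 212, median 199). MO libraries were both the 3 highest and the 2 lowest of the 12 male values. For Sufu the log2 fold change was -0.03 (SE 0.10, 95% interval -0.23 to 0.17, exact permutation p = 0.775). Female values ran from 175 to 212 in MO (median 188) and from 171 to 242 in SAL (median 191). Sufu was the 1 gene of the 7 with a female difference below 0, at -0.08 on the log2 scale (SE 0.10), or -0.09 without PFC1 and PFC3.

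Gli3, which encodes the Gli protein that acts mainly as a repressor, is the gene around which the set was formed. In female MO libraries Gli3 had 163 (PFC1), 146 (PFC3), 106 (PFC5), 123 (PFC8), 129 (PFC21) and 130 (PFC23) normalized counts. In female SAL libraries it had 92.9 (PFC2), 95.9 (PFC4), 98.3 (PFC6), 99.8 (PFC7), 116 (PFC22) and 91.3 (PFC24). All 6 MO libraries were above the SAL mean and 5 of 6 above every SAL library, while PFC5, the lowest MO library, lay below PFC22, the highest SAL library. The means were 133 ± 19.5 in MO and 99.0 ± 8.88 in SAL (SD, n = 6 each), a difference of 0.41 on the log2 scale (SE 0.11). Of the 11867 genes with a mean of at least 50 normalized counts in the female table, 41 had a larger difference. These are the values for which Gli3 was chosen, so nothing is read from their size.

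In male MO libraries Gli3 had 119 (PFC10), 141 (PFC11), 151 (PFC13), 107 (PFC15), 83.6 (PFC17) and 104 (PFC19) normalized counts. In male SAL libraries it had 127 (PFC9), 147 (PFC12), 106 (PFC14), 115 (PFC16), 134 (PFC18) and 109 (PFC20). The highest and the 2 lowest of the 12 male libraries were all MO, and the groups overlapped over nearly the whole range. The means were 118 ± 24.9 in MO and 123 ± 15.8 in SAL (SD, n = 6 each). The log2 fold change of Gli3 in males was -0.08 (SE 0.13, 95% interval -0.36 to 0.19, exact permutation p = 0.593), and without MO replicate PFC17 it was 0.0097. Whether the female and male differences differ was not tested, because the female difference is what chose the gene.

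The 4 group means of Gli3 stood in the order female MO (133), male SAL (123), male MO (118) and female SAL (99.0), so that the highest and the lowest were both female. Without PFC1 and PFC3 the female MO mean was 122, just below male SAL. In SAL, the male mean over the female mean was 0.31 on the log2 scale, higher than for 99.4% of the 11756 genes with a mean of at least 50, whose median was 0.04. In MO the same ratio was -0.17, higher than for 9.51% of 11785 genes, and without PFC1 and PFC3 it was -0.05, higher than for 11.7% of 11743. The 2 tables were normalized separately by the authors, so these are values set side by side with no test. The female means are also the values for which Gli3 was chosen. Extreme ranks of males over females can follow from that choice, so nothing is read from them or from the order of the groups.

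**Figure D2:**
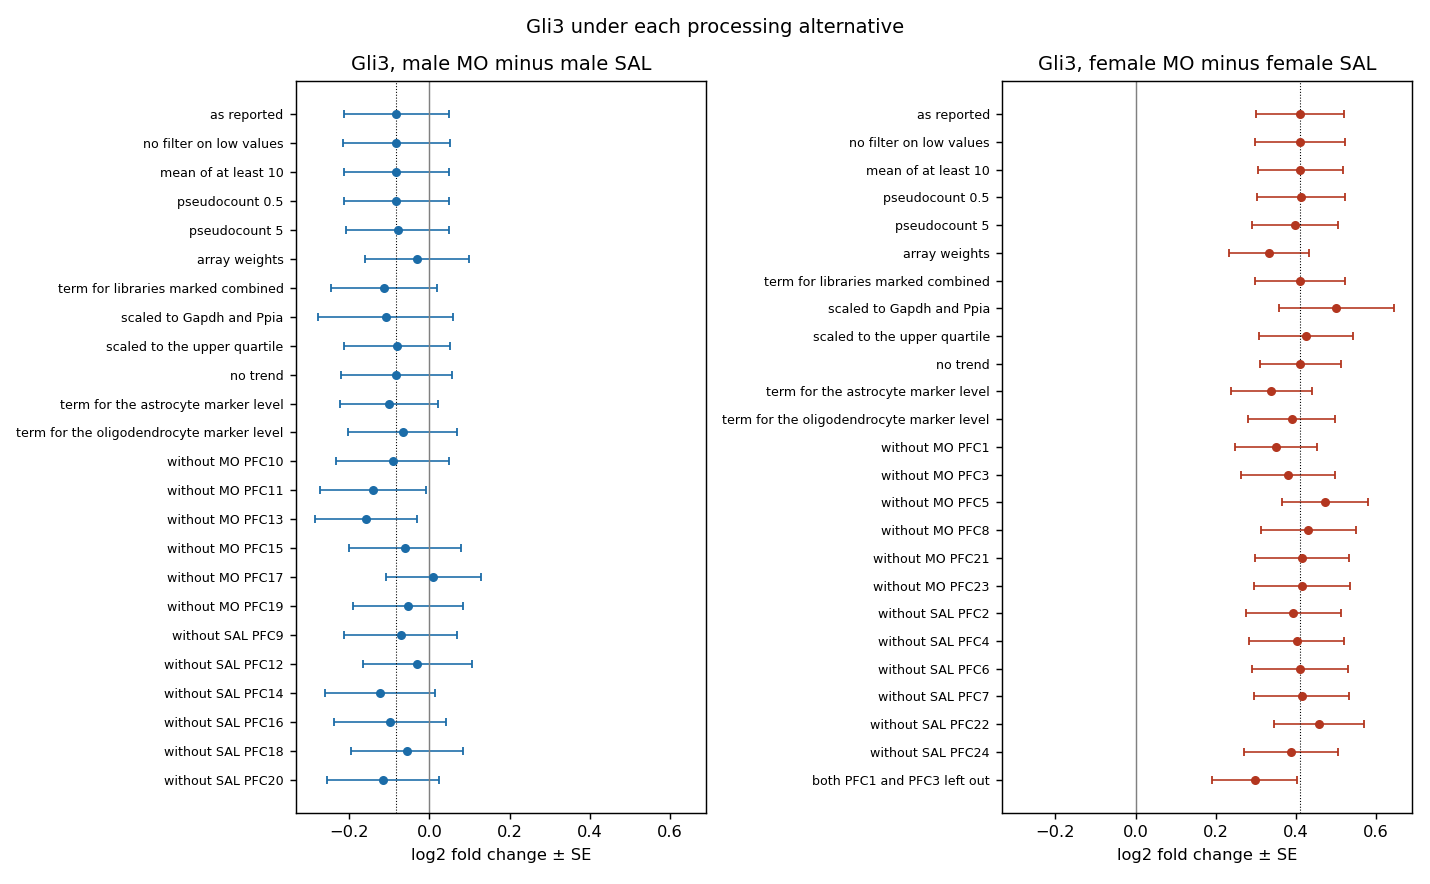
Log2 fold change of Gli3, MO minus SAL (x axis, bars are SE), in males and females under each way of processing the values or leaving out a library (y axis). The dotted line is the value as reported. Female estimates lie between 0.30 and 0.50 and male estimates between -0.16 and 0.01.

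As a description, the female Gli3 difference was 0.35 without MO replicate PFC1, 0.47 without MO replicate PFC5 and 0.46 without SAL replicate PFC22, and 0.30 with PFC1 and PFC3 both left out. Among libraries marked combined it was 0.45 (4 MO and 4 SAL), and among the others 0.33 (2 and 2). In males the corresponding values were 0.03 (2 MO and 1 SAL) and -0.15 (4 and 5).

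Gli2, the main activator, showed near-equal levels in males, from 24.6 to 39.4 normalized counts in MO (median 33.7) and from 26.6 to 42.4 in SAL (median 33.1). Gli2 had a log2 fold change of 0.01 (SE 0.15, 95% interval -0.32 to 0.34, exact permutation p = 0.944). In females it ran from 21.5 to 47.8 in MO (median 33.2) and from 26.1 to 37.0 in SAL (median 31.7), a log2 difference of 0.02 (SE 0.19), or -0.19 without PFC1 and PFC3. Both the highest and the lowest female libraries were MO, the highest being PFC1.

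Gli1, whose transcription is widely used as a readout of the pathway, was low. In males it had 5.80 to 18.2 normalized counts in MO (median 12.7) and 9.36 to 16.1 in SAL (median 12.05). For Gli1 the log2 fold change was -0.01 (SE 0.25, 95% interval -0.53 to 0.50, exact permutation p = 0.963). In females it had 10.5 to 19.6 in MO (median 14.6) and 1.93 to 13.7 in SAL (median 11.95). The SAL library PFC22 was at 1.93 while the other 5 lay between 11.3 and 13.7, and PFC22 also held the highest Gli3 of the SAL group. The female difference of 0.58 (SE 0.35) was 0.22 without PFC22 and 0.52 without PFC1 and PFC3.

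Hhip, which encodes a membrane protein that sequesters hedgehog ligands, was among the most variable of the 7. In males it had 82.4 to 201 normalized counts in MO (median 105) and 67.3 to 128 in SAL (median 87.4). The MO values were led by PFC15 at 201 and PFC10 at 147, and 3 of 6 MO values exceeded the SAL mean. The log2 fold change of 0.29 was the largest of the 7 in males (SE 0.20, 95% interval -0.14 to 0.72, exact permutation p = 0.275), and it was 0.13 without PFC15. In females Hhip had 67.7 to 250 in MO (median 99.8) and 56.5 to 152 in SAL (median 91.7), and PFC1 (250) and PFC3 (229) stood well above the other 4 MO libraries, which lay at 104 or below. The female difference was 0.47 on the log2 scale (SE 0.31), 0.27 without PFC1 and -0.0050 without PFC1 and PFC3.

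In the male fit over all genes, 0 of the 7 genes passed an unadjusted p of 0.05, against 2.85% of the 16662 genes tested (1.33% higher and 1.52% lower in MO). After Benjamini-Hochberg adjustment in limma, 0 genes of the whole male table passed 0.05 (smallest adjusted p = 1.00). With 4 of the 7 above 0 and 3 below, and 49.8% of all genes above 0, the share of members above 0 was near that of the table. Among the female libraries 6 of the 7 differences were above 0, beside 50.5% of all genes, and 2.93% of 16717 genes had an unadjusted p under 0.05 (1.81% higher and 1.12% lower in MO). None passed adjustment there in limma (smallest adjusted p = 0.918), and nothing is read from the female count, since that comparison chose the set. None of the 7 genes had every MO library above every SAL library, where 0.0598% of all genes did in females and 0.0420% in males, and none had every MO library below every SAL library, where 0.0718% did in females and 0.0180% in males.

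**Figure D3:**
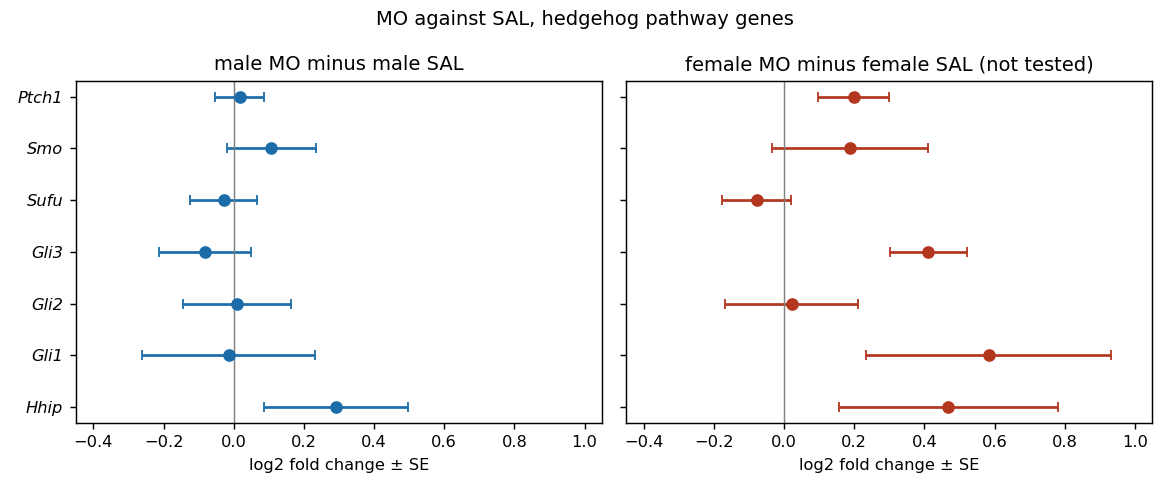
Log2 fold change, MO minus SAL, of the 7 hedgehog pathway genes (y axis) in males and in females (x axis, points are limma estimates and bars are SE, 6 libraries per group). Male values lie between -0.08 and 0.29, and female values, which are a description, between -0.08 and 0.58.

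How much a gene varies between libraries of the same group was set beside genes of like level. The SD of log2 values of Hhip within groups was 0.64 in the female and 0.44 in the male table, above 97.8% and 96.8% of genes of like level. Smo was also variable, with an SD of 0.45 in females and 0.25 in males, above 95.6% and 89.1% of like genes. Without PFC1 and PFC3 the female SDs were 0.42 for Hhip, above 95.4% of like genes, and 0.32 for Smo, above 93.4%. Gli3 was less variable than most in females (SD 0.17, above 27.6%, or SD 0.13, above 11.6%, without PFC1 and PFC3) and more variable in males (SD 0.25, above 86.4%). The female values chose Gli3, and such a choice can favour a small spread within groups. Nothing is therefore read from its female SD or from the contrast with males.

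Markers of glia varied between the same libraries, and the members followed them to different degrees. The marker level of a library is the mean log2 value of a list, 18 genes for astrocytes and 10 for oligodendrocytes, and correlations are over 12 libraries of a table after group means were removed. They are descriptions, with no test, since all values of a library share its dissection, RNA and scaling. Hhip followed the oligodendrocyte level closely in both tables, at r = 0.91 in females (Spearman's rho 0.85) and r = 0.88 in males (rho 0.88). With the 2 libraries farthest from the median oligodendrocyte level left out, r was 0.82 in females and 0.85 in males, and without PFC1 and PFC3 it was 0.77 in females. Smo followed the astrocyte level in females, at r = 0.91 (rho 0.94, and 0.83 without the 2 farthest libraries). In males r was 0.62 for Smo and astrocytes, but rho was 0.29 and r was 0.31 without the 2 farthest libraries (PFC18 and PFC19), so the male relation rests on those. Smo also had r = 0.87 in females and 0.65 in males (male rho 0.54) with 9 oligodendrocyte precursor markers. With endothelial markers Smo had 0.88 and 0.46, but the male rho was 0.24 and the male r was 0.02 without PFC18 and PFC19. Hhip had 0.86 in females and 0.78 in males with precursor markers, and 0.73 and 0.67 with microglia markers. Without PFC1 and PFC3 the female values of Smo were 0.79 with astrocytes, 0.63 with precursors and 0.65 with endothelium. Those of Hhip were 0.61 with precursors and 0.59 with microglia. In females, neither gene thus followed the markers of 1 cell type alone.

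**Figure D4:**
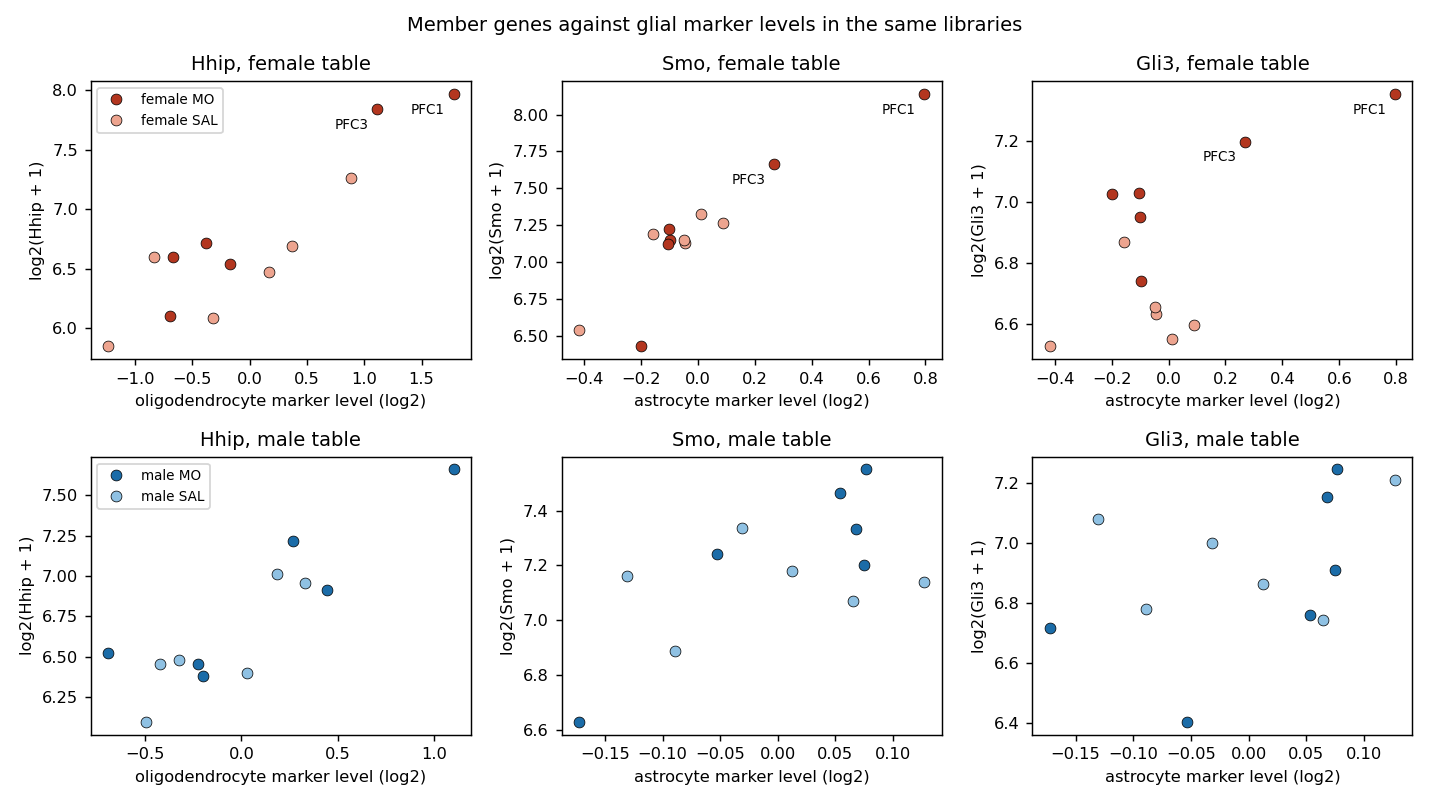
Hhip against the oligodendrocyte marker level, and Smo and Gli3 against the astrocyte marker level, in female (top) and male (bottom) libraries, as log2(normalized count + 1) on the y axis and the mean log2 marker value minus its mean in that table on the x axis. Each point is a library. Hhip rises with the oligodendrocyte level in both tables, and the female MO libraries PFC1 and PFC3 hold the highest Hhip, Smo and Gli3 values of the female table.

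The female MO libraries PFC1 and PFC3 held the highest levels of these markers, and the SAL library PFC2, next for oligodendrocytes at 142848, was kept throughout. Summed over the 10 oligodendrocyte genes, female MO libraries held 48190 to 312040 normalized counts and female SAL libraries 32452 to 142848. The mean log2 difference of that list, 0.32 between female MO and SAL with all libraries, was 0.00 without PFC1 and -0.32 without PFC1 and PFC3. The 18 astrocyte genes summed to between 97322 and 194680 in female MO and between 92229 and 120618 in female SAL, none was listed at 0 in any library, and 17 of 18 had a difference above 0. The astrocyte mean difference was 0.19 with all libraries, 0.05 without PFC1 and -0.03 without PFC1 and PFC3. In males the astrocyte sums were 97817 to 121714 in MO and 102068 to 124130 in SAL, a mean difference of 0.02. Endothelial markers had r = 0.57 with Gli3 in females, 0.23 without PFC1 and -0.21 without PFC1 and PFC3, and r = 0.51 in males. The 10 endothelial genes summed to 6795 to 10191 in female MO libraries and 6136 to 7320 in those of female SAL, with a mean log2 difference of 0.17, or 0.03 without PFC1 and PFC3. Markers of meninges and fibroblasts had r = 0.66 with Gli3 in females, 0.78 without PFC1 and PFC3, and -0.09 in males, where the list was lower in MO by a mean log2 difference of -0.43. Blood cell markers were higher in female MO by a mean log2 difference of 1.27 over 10 genes, which was 0.83 without PFC1 and 0.96 without PFC1 and PFC3. Their sums ran from 4648 to 19242 in female MO and from 2835 to 10600 in female SAL, and 4 of the 10 genes were listed at 0 in some library. On the log2 scale, these sums differed by a mean of 0.71. The list includes S100a8, S100a9 and Ltf, which the paper reports as upregulated in female MO from these same libraries. Blood cell markers and Gli3 had r = 0.32 in females, -0.12 without PFC1 and PFC3, and 0.46 in males.

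With the oligodendrocyte marker level as a term in the fit, an alternative chosen after seeing the data, the Hhip difference was 0.26 in females and 0.12 in males, against 0.47 and 0.29 without it. With the astrocyte level as a term, the female differences were -0.07 for Smo, against 0.19 without it, and 0.34 for Gli3, against 0.41. Gli3 minus the astrocyte list mean, per library on the log2 scale, was 0.22 higher in female MO than in female SAL (3 of 6 MO libraries above every SAL library), 0.30 without PFC1 and 0.33 without PFC1 and PFC3. In males it was -0.10. Gli3 itself correlated with the astrocyte level at r = 0.65 in females (rho 0.51) and r = 0.45 in males (rho 0.36), and at r = -0.03 over the 10 female libraries left without PFC1 and PFC3. Both removed libraries were MO, so this last value has 4 MO and 6 SAL libraries behind it. The part of cell make-up in the differences between MO and SAL was not tested. These values are descriptions, and the female Gli3 values recompute the difference that chose the gene.

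The members did not move as a unit from library to library. Gli3 and Gli1 had r = -0.32 in females and -0.59 in males, which became 0.25 and -0.52 without the 2 libraries farthest from the median of Gli1 (PFC22, with the low Gli1, was 1 of them in females). Without the 2 farthest from the median of Gli3 the values were -0.75 and -0.69, and without PFC1 and PFC3 the female value was -0.62. Gli3 and Gli2 had r = 0.28 in females and 0.05 in males, and -0.60 in females without PFC1 and PFC3, so the sign of the female value rests on those libraries. Smo and Gli3 had r = 0.57 in females, -0.03 without PFC1 and PFC3, and 0.43 in males. Sufu and Gli3 had 0.24 in females, 0.43 without PFC1 and PFC3, and 0.46 in males, so by the smaller of both tables' values the member nearest to Gli3 was Smo with all libraries and Sufu without those 2. Ptch1 and Hhip, both described as targets of the pathway, had r = 0.47 in females and 0.66 in males, and 0.22 and 0.42 without the 2 libraries farthest from the median of Hhip (PFC1 and PFC3 in females, where r was 0.10 once group means were removed again).

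Over the 11782 genes with a mean of at least 50 in both tables, likeness to Gli3 was scored as the smaller of the female and the male correlation, which for the median gene was -0.31. The genes most like it were Ptpn14, a tyrosine phosphatase gene (0.74 in females and 0.82 in males), Plpp3, a lipid phosphatase gene (0.68 and 0.76), and Nhsl1 (0.68 and 0.71). Others near the top were Igsf11, an adhesion molecule gene, Yeats2, Nr2f2, a nuclear receptor gene, and the transcriptional coactivator gene Yap1, with smaller correlations between 0.66 and 0.64. Several of the female values were much smaller without PFC1 and PFC3. The female correlation without those libraries was 0.51 for Ptpn14, 0.48 for Nr2f2 and 0.40 for Yeats2, but 0.03 for Plpp3, 0.13 for Nhsl1, -0.0022 for Igsf11 and 0.12 for Yap1. At the other end stood Uchl5, Pim2 and Psmd12, with correlations of -0.76 and -0.76, -0.75 and -0.78, and -0.76 and -0.72 in females and males. Their female correlations without PFC1 and PFC3 were -0.60, -0.65 and -0.72. Of astrocyte markers, the connexin gene Gja1 ranked 17 and the glutamate transporter gene Slc1a3 ranked 78 in likeness, while Aqp4 ranked 382, Aldh1l1 982 and Gfap 998. Without PFC1 and PFC3, Gja1 ranked 2111, Slc1a3 5890, Aqp4 4541, Aldh1l1 654 and Gfap 661. Of the other members, Smo ranked 284, Sufu 1089, Ptch1 1669 and Hhip 3119 with all libraries, and 3002, 93, 3095 and 10711 without PFC1 and PFC3. These rankings rest on 12 libraries per table and are descriptions.

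Per kilobase, the ligand gene Shh lay at 9.90 to 12.4 over the 4 group means, below Ptch1 (73.6 to 84.7) and Smo (36.6 to 44.0). Shh, the ligand made by cortical neurons, had 28.2 ± 3.39 normalized counts in female MO, against 35.2 ± 10.6 in female SAL, and 32.6 ± 2.81 in male MO, against 31.0 ± 11.2 in male SAL (SD, n = 6 each). The female difference was -0.27 on the log2 scale, or -0.30 without PFC1 and PFC3. In males the log2 fold change of Shh was 0.16 (SE 0.22, exact permutation p = 0.608), with MO libraries between 27.2 and 35.4 and SAL libraries spread from 13.8 to 44.0. Ihh and Dhh, the other ligand genes, averaged 2.34 or less in every group and were each listed at 0 in some libraries.

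Of the coreceptors that present ligand to Ptch1, Boc had the highest normalized counts, at means of 236 in male MO and 250.5 in male SAL, and of 208 in female MO and 247 in female SAL. Gas1 followed at 153 in male MO and 153 in male SAL, and at 184 in female MO and 149 in female SAL, and Cdon lay between 79.2 and 83.7 over the 4 group means. Per kilobase of transcript the order of Boc and Gas1 was reversed. Gas1 lay at 129 to 159 and Boc at 46.7 to 56.3 over the 4 group means. The log2 fold change of Gas1 in males was 0.00 (SE 0.09, exact permutation p = 0.981), and its female difference of 0.29 (SE 0.14) was 0.09 without PFC1 and PFC3. Boc had a male log2 fold change of -0.09 (exact permutation p = 0.342), with a female difference of -0.26, or -0.11 without PFC1 and PFC3. Cdon had a male log2 fold change of 0.06 (exact permutation p = 0.656), with a female difference of -0.04, or -0.17 without those 2 libraries.

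A wider list of 143 pathway genes, chosen from general knowledge, had 138 in the tables. Of 134 tested in males, 1 was higher and 3 were lower in MO at an unadjusted p under 0.05 in limma, 2.99% of the list beside 2.85% of all genes, and none passed adjustment. The 4 male calls became 8 without MO replicate PFC11 or SAL replicate PFC18, 7 without PFC9 or PFC15, and 2 without PFC20. Calls over all male genes moved too, from 475 to 685 without PFC11 and to 495 without PFC15. Nothing is read from these list counts. In females 0 of 135 passed an unadjusted p of 0.05 in limma, beside 2.93% of all genes. That count was between 0 and 8 when 1 library was left out, with 8 without PFC21, while calls over all female genes ran from 375 to 842. The median log2 fold change over the list was -0.02 in males and 0.01 in females.

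By role, the male medians were -0.11 over 10 genes of ligands and their processing, -0.00 over 8 of receptors and coreceptors, -0.02 over 44 of ciliary and cytoplasmic control, -0.01 over 39 of cilium assembly and -0.02 over 33 described targets. In females they were -0.06, 0.00, -0.01 and -0.01 for the same first 4 groups. For 34 described targets the female median was 0.10, with 26 above 0 (76.5%, beside 50.5% of all genes). The described targets include Pdgfra and Olig2, also used here as oligodendrocyte precursor markers, and Igf2, also used as a marker of meninges and fibroblasts. Without PFC1 and PFC3 the median of the described targets was -0.01, with 16 of 34 above 0 (47.1%, beside 51.1% of all genes). The medians of the other 4 groups then lay between -0.07 and 0.03.

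The 4 male genes came from 4 of the 5 role groups, and none was a receptor gene. They were named because their limma p was under 0.05 in these same male libraries. Their small exact p-values and their counts of libraries beyond the SAL mean follow from that choice and add no support. Mycn, a proto-oncogene and described target, had 185 normalized counts in MO and 217 in SAL on average, with 6 of 6 MO libraries below the SAL mean (log2 fold change -0.23, SE 0.08, exact permutation p = 0.00866). Hhat, which encodes the acyltransferase that adds palmitate to hedgehog ligands, was low, at means of 5.45 in MO and 9.04 in SAL, with 6 of 6 MO libraries below the SAL mean (-0.66, SE 0.25, exact permutation p = 0.0108). Efcab7, a gene of the cilium base complex that aids Smo signalling, was higher in MO, at 18.1 against 10.9 in SAL, and higher than the SAL mean in 5 of 6 MO libraries (0.61, SE 0.25, exact permutation p = 0.0368). Cc2d2a, a gene of the ciliary transition zone, had 142 in MO and 164 in SAL, with 5 of 6 MO libraries below the SAL mean (-0.21, SE 0.09, exact permutation p = 0.0411). The adjusted p of each in limma over 16662 genes was 1.00. In females the differences were -0.24 for Mycn, -0.19 for Hhat, 0.12 for Efcab7 and -0.07 for Cc2d2a, and without PFC1 and PFC3 they were -0.15, -0.11, 0.07 and 0.05.

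**Figure D5:**
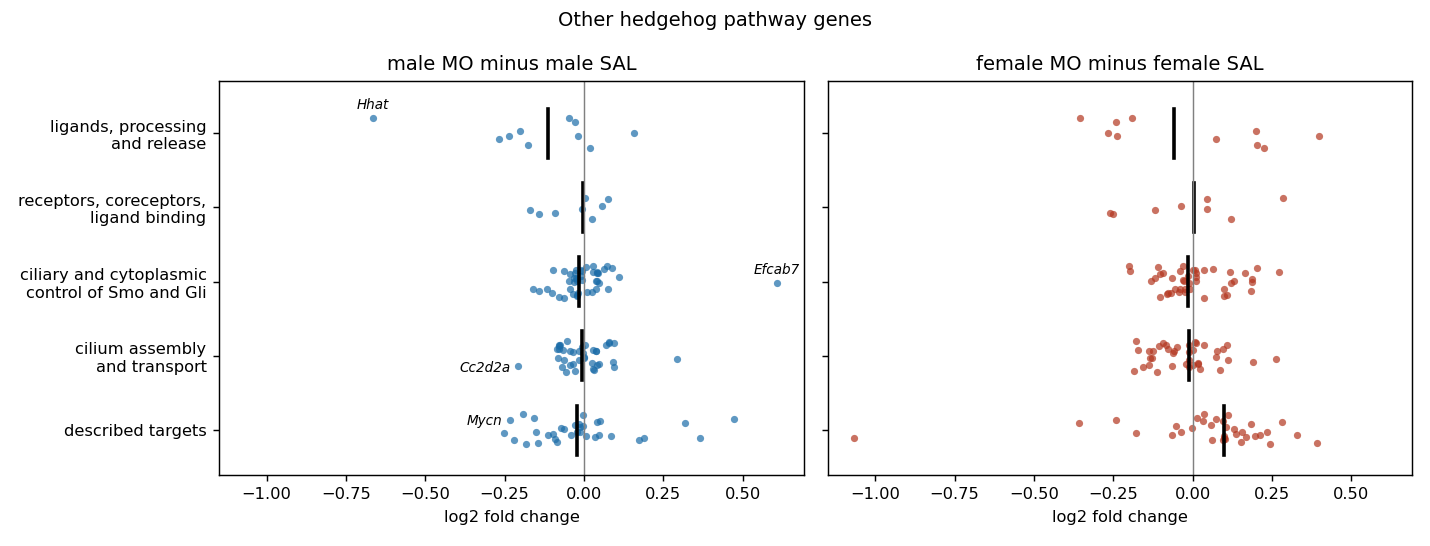
Log2 fold change, MO minus SAL (x axis), of each tested gene of the wider hedgehog list by role (y axis), in males and females. Points are genes, black bars are list medians, and the 4 genes with an unadjusted limma p under 0.05 in males are named. The points of both sexes are spread around 0, with Hhat at -0.66 and Efcab7 at 0.61 farthest out in males.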

How the data were processed

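Polyadenylated mPFC RNA was sequenced by the authors as single 85-base reads in 24 libraries. STAR alignment to mm10, under a first-strand setting, was followed by Salmon quantification. What the authors deposited is a signal, namely counts normalized with DESeq, in 1 table for males and 1 for females. Values under 20 were whole multiples of the commonest lowest value in 23.8% to 80.4% of cases per library (tolerance 0.02), so raw counts were not recovered and tests made for counts were replaced by limma. Columns of no sample in this series numbered 0.

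Values were taken as log2(normalized count + 1), and genes summing to at least 10 over the 12 libraries of a sex were kept (16662 in males, 16717 in females). Within a sex, limma 3.58.1 (R 4.3.3) compared MO with SAL (empirical Bayes with a trend, Benjamini-Hochberg adjustment over all genes kept). Single genes were also tested in males by 2-sided exact permutation over 924 relabellings. The fit was tested on simulated data with known changes. Figures used Python 3.11.15 and matplotlib 3.10.9. Transcript lengths, the longest GENCODE transcript paired with a RefSeq mRNA, and coding windows are from GRCm38.p6.

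The members and lists were chosen with earlier results of these data known. Named genes were the 7 members, list genes with an unadjusted p under 0.05 in males or females (up to 6 each), Shh, Ihh, Dhh, Cdon, Boc and Gas1, the 8 genes most like Gli3 and 3 most unlike it, and the astrocyte markers Aldh1l1, Aqp4, Gja1, Slc1a3 and Gfap. Some genes that this rule names are not reported here. Libraries of a group are separate animals, so p-values measure the spread between libraries. That spread holds differences between animals and counting error together, and counting error could not be computed on its own. Marker terms and leaving out PFC1 and PFC3 together were chosen after seeing the data. The other alternatives were other filters, pseudocounts of 0.5 and 5, sample weights, a term for combined libraries, scaling to Gapdh and Ppia or to the upper quartile, no trend, and leaving out each library. What was combined is not given in the sources used here.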

Additional observations from a re-analysis of the deposited data

Results flagged for a closer look

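For each member and group of 6 libraries, the library farthest from its neighbours was examined with Dixon's test at its 95% limit. Of 28 such groups 4 passed it. The nominal rate of about 1 in 20 is for independent groups, and these groups share libraries. The share that passes over all genes was not computed, so nothing is read from the count. Gli1 was at 1.93 normalized counts in the female SAL library PFC22, while the other 5 lay between 11.3 and 13.7. Gli3 was at 116 in the same library, with the others between 91.3 and 99.8. Smo was at 92.3 in the female SAL library PFC24, with the others between 139 and 160. Ptch1 was at 785 in the male SAL library PFC16, with the others between 591 and 614.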

How the results depend on the processing

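Of 484 values recomputed, 431 kept their direction and their side of the threshold, or moved by less than the spread or by no more than 1.5 times for counts, and no member passed an adjusted p of 0.05 in males under any alternative. In males, genes at an unadjusted p under 0.05 numbered 475, 290 when scaled to Gapdh and Ppia, 588 with sample weights and 730 with a term for the astrocyte level (392 to 685 with 1 library left out). In females they numbered 490 (355 to 670 under the other alternatives, and 375 to 842 with 1 library left out, with 842 without PFC8 and 827 without PFC21). Counts of the wider list, given next, moved along with these counts over all genes in several settings, so nothing is read from them. The wider list had 4 such genes in males, 7 with sample weights and 8 with the astrocyte term (2 to 8 with 1 library left out). In females it had 0, 1 with no filter, with the oligodendrocyte term or without PFC1 and PFC3, 2 with sample weights, upper-quartile scaling or the astrocyte term, 3 when scaled to Gapdh and Ppia, and 6 with a term for combined libraries (0 to 8 with 1 library left out). Male member values near 0 changed sign. Sufu became 0.013 with sample weights, Gli1 0.047 with the combined term and 0.0039 with the astrocyte term, Gli2 -0.017 when scaled to Gapdh and Ppia and -0.0080 with the astrocyte term, and Ptch1 -0.010 with that scaling and -0.0079 with the oligodendrocyte term. With 1 library left out, male values ran from -0.13 to 0.17 for Gli1, -0.046 to 0.088 for Gli2, -0.16 to 0.0097 for Gli3, -0.0091 to 0.078 for Ptch1, -0.074 to 0.042 for Sufu, 0.045 to 0.23 for Smo and 0.13 to 0.39 for Hhip. Without PFC1 and PFC3, female Gli2 was -0.19 and Smo -0.12. Why values changed between alternatives was not tested. No paired analysis was made, because MO and SAL offspring had different dams and which male and female libraries were littermates was not given. The low counts of Gli1, Hhat, Ihh and Dhh limit their precision.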
